A study of Homo sapiens with 18 samples.

Results

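The earliest of 3 sampling times after a brief pulse of fluid shear stress, 3 h, was examined here across all expressed genes, and above all beyond the immediate early genes. PC-3 is an established human prostate cancer line. Its cells were detached and suspended. Sheared cells were pushed with a syringe through a narrow needle at a set flow rate, and static cells waited in suspension. All groups were then kept unattached, in wells coated with poly-HEMA, in DMEM with insulin-transferrin-selenium and bovine serum albumin, and RNA of the cytosol, released by a mild detergent, was sequenced. The 3 h comparison used 6 of the 18 libraries: 3 sheared and 3 static, chosen by treatment and time in the labels, with sheared and static libraries of 1 replicate number from 1 pool of cells. The other 12 libraries are the same treatments at 12 h and 24 h, from other pools. A single cell line was studied, every cell was in suspension, and the static cells had been detached too.

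Fluid that moves past a cell pulls on its membrane and cytoskeleton, and tumour cells meet such forces when they enter the circulation. Mechanical and growth factor signals reach the nucleus through calcium, cyclic AMP (cAMP) and MAP kinase pathways. Immediate early genes are switched on first, without new protein synthesis, and feedback inhibitors, secreted ligands and other delayed genes follow. Transcripts of mitosis build up in G2 phase and are kept down in the rest of the cycle, in part through promoter elements named the cell cycle genes homology region (CHR) and the CCAAT box.

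The 3 h libraries held 21030976 to 25862360 counts. Values are CPM, counts scaled to library size with TMM factors, given for pools 1, 2 and 3 in that order, and fold changes are log2 values of sheared over static cells with their standard error (SE). In a principal component analysis of the 6 libraries the first component (30.6% of variance) set pool 3 apart, and the second (27.2%) put the sheared libraries, at -22.2 to -9.46, apart from the static ones, at 11.7 to 29.8. KRT8 and KRT18, keratins of PC-3 cells, were at 1050 to 1440 and 796 to 985 CPM, and of the 12 PC-3 markers only ALDH1A1 was at 0. Summed markers of androgen-dependent prostate cells reached 406 to 527 CPM (static) and 405 to 538 CPM (sheared), with KLK2, KLK3 and PCA3 at 0. Summed haematopoietic markers reached 17 to 18.8 CPM (static) and 13.7 to 20.1 CPM (sheared), with HBB and GATA1 at 0. Summed fibroblast and endothelial markers reached 31.6 to 39.0 CPM (static) and 47.9 to 49.9 CPM (sheared), with THY1 and EMCN at 0. Of the 8 tested, COL1A1 was the 1 call (12.5%, against 1.12% of all genes), 2 were above 0 and the median was -0.24. The sum without COL1A1, set aside after its values were seen, was 19.5 to 23.5 CPM (static) and 16.4 to 20 CPM (sheared). MALAT1, a nuclear RNA, was at 29.5, 25.8 and 23.9 CPM in static and 15.1, 14.4 and 15.1 CPM in sheared libraries. Static values were all above sheared ones (-0.82 ± 0.54, adjusted p = 0.778, edgeR; 8.25e-06 in a fit of the 6 libraries alone), and the part of cytosol purity in the results below was not tested. The sum of 13 RNAs listed as nuclear was 305 to 324 CPM (static) and 282 to 328 CPM (sheared). TUG1 alone had 83.3 to 111 CPM and MEG3 was at 0, so the sum says little about MALAT1. KCNQ1OT1 was also lower in every sheared library (1.11 to 1.69 CPM static, 0.595 to 1.03 CPM sheared). PVT1 was higher in every sheared library (13.4 to 16.9 and 18.2 to 21.3 CPM). Of the 10 tested, 4 were above 0 and the median was -0.12.

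Sheared cells had more transcript of 170 genes (1.12% of the 15189 tested) and less of 52 (0.342%) at 3 h, at an adjusted p under 0.05 in edgeR's quasi-likelihood test. Among genes that rose, 71 did so by at least 2-fold, and among those that fell, 9 did. The median over the genes that rose was 0.88 and over those that fell -0.74, against 0.01 over all genes. Of the 170, 15 belonged to the list of immediate early genes (15 of 45 tested rose and none fell), with the smallest p-values for NR4A3 (4.07 ± 0.23), KLF4 (1.55 ± 0.12) and NR4A2 (3.25 ± 0.25). In that list the rises numbered 6 to 7 without 1 pool of 3 h and 27 without 24 h pool 3. The other 155 genes, 60 of them higher by at least 2-fold, are the subject of what follows. The gene lists were written with earlier results of these data known. Their shares of calls are therefore descriptions and no separate support. The 222 genes called (1.46% of those tested) all moved the same way in the 3 pools. The static and sheared CPM did not overlap for 159 of the 170 and 51 of the 52 (18.8% of all genes). Both are favoured by the paired test that chose these genes, so they are no separate support. The share of all genes that moved 1 way in the 3 pools was not counted. The fit takes its spread from all 18 libraries. The median SD of the log2 ratio between paired libraries was 0.161 at 3 h, 0.250 at 12 h and 0.332 at 24 h. A fit of the 6 libraries of 3 h alone called 816 genes higher (5.37%) and 650 lower (4.28%), among them 165 of the 170 and all 52. Without pool 1, 2 or 3 of 3 h, 71, 70 or 76 genes were higher and 9, 10 or 13 lower. Without 24 h pool 3, whose sheared library had the lowest TMM factor of the 18 (0.721), 304 were higher and 142 lower.

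**Figure D1:**
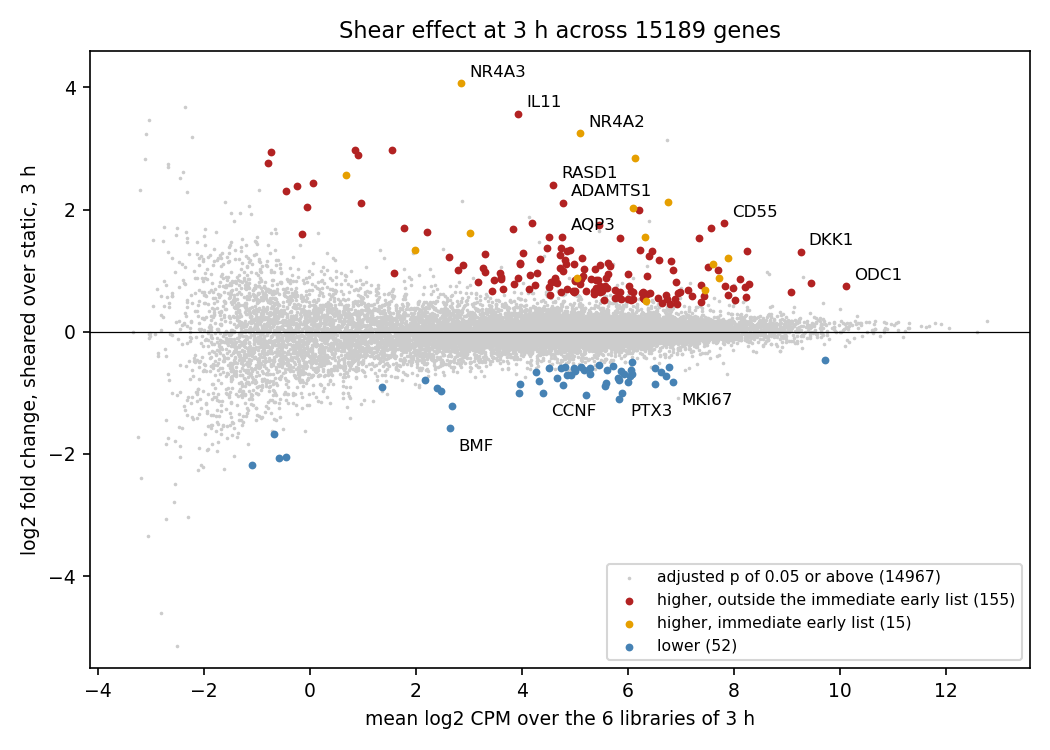
Log2 fold change of sheared over static cells at 3 h (y axis) against mean log2 CPM over the 6 libraries (x axis), 1 point per gene. Red points are the 155 genes that rose outside the immediate early list, yellow points the 15 that rose in it, blue points the 52 that fell, and grey points the rest; most called changes of at least 2-fold are rises.

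Of 23 cytokine and chemokine genes 3 rose (13%, against 1.12% of all genes) and none fell (median 0.27), and all 3 encode ligands of the interleukin-6 family, which signals through gp130 and STAT3. Interleukin-11, IL11, had the largest rise outside the immediate early list among genes at a mean log2 CPM of 1 or more: static libraries had 5.86, 4.10 and 3.42 CPM and sheared libraries 63.0, 75.0 and 28.8 CPM, a change of 3.57 ± 0.24 (adjusted p = 2.67e-07, edgeR). The groups lay far apart, and pool 3 had the lowest sheared value. IL6 itself was at 10.9, 8.63 and 5.26 CPM in static and 25.8, 31.8 and 20.2 CPM in sheared libraries (1.68 ± 0.20, adjusted p = 8.63e-05). CLCF1, a ligand of the CNTF receptor, rose by 1.20 ± 0.14 (adjusted p = 8.76e-05), and IL6R, which binds interleukin-6, by 0.85 ± 0.15 (adjusted p = 0.00442). The effect on IL11 was 0.59 at 12 h and 0.35 at 24 h, neither past the threshold. IL6 was still higher at 12 h (0.84, adjusted p = 0.0155, edgeR) and at 24 h (0.64, adjusted p = 0.0486). CLCF1 was higher at both as well (0.63 and 0.42). The courses of these genes were not compared by a test. For all 3 ligands the effect at 24 h was smaller than at 3 h, by contrasts of -3.22, -1.04 and -0.78 (adjusted p = 1.82e-05, 0.042 and 0.0286, edgeR). Time and batch cannot be told apart in these differences. The adjusted p was above 0.05 for IL6 (0.0918 with no replicate block) and IL6R (0.0646 to 0.113 without any 1 pool and 0.0893 with no replicate block).

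Growth factor ligands rose too: 6 of 34 tested (17.6%, against 1.12% of all genes), and none fell (median 0.27). HBEGF, 1 of the 6, is also in the immediate early list. TGFB2, a transforming growth factor beta ligand, had 148, 136 and 102 CPM in static and 259, 284 and 249 CPM in sheared libraries, with no overlap (1.05 ± 0.13, adjusted p = 1.66e-04, edgeR). Amphiregulin, AREG, a ligand of the EGF receptor, had 228, 207 and 181 CPM in static and 384, 435 and 309.8 CPM in sheared libraries (0.87 ± 0.11, adjusted p = 1.75e-04). PTHLH, parathyroid hormone-related protein, which acts on bone and was first found in tumours, rose by 0.72 ± 0.14 (adjusted p = 0.0105). These 3 rises were also present at 12 h and 24 h: TGFB2 at 0.91 and 0.87, AREG at 1.16 and 0.96, and PTHLH at 0.73 and 0.44. In other fits a call was lost for TGFB2 (0.0561 with no replicate block), AREG (0.133 with no replicate block) and PTHLH (0.113 without pool 1, 0.369 without pool 2 and 0.628 with no replicate block). Rises in the list numbered 2 to 5 without 1 pool of 3 h and 7 without 24 h pool 3.

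In the Wnt and Notch feedback list 4 of 23 rose (17.4%, against 1.12% of all genes) and none fell, while 10 were above 0 and the median was -0.02. DKK1, which blocks Wnt receptors, was at 418, 423 and 333 CPM in static and 923, 905 and 1077 CPM in sheared libraries (1.31 ± 0.21, adjusted p = 0.00679, edgeR). Every sheared library lay above every static one, and the rise was largest in pool 3. Follistatin, FST, which is not in that list and binds activin, had 241, 247 and 248 CPM in static and 328, 349 and 418 CPM in sheared libraries (0.57 ± 0.10, adjusted p = 0.00600). Its effect was larger at 12 h (1.33), a difference of 0.76 (adjusted p = 0.0134), and DKK1 was higher at 12 h (1.42) and 24 h (0.95) as well. NRARP, an inhibitor of Notch signalling that Notch itself induces, rose by 1.18 ± 0.17 (adjusted p = 8.86e-04). Judged by the adjusted p, calls were lost for DKK1 (0.0683 without pool 3), FST (0.0599 to 0.192 without any 1 pool and 0.221 with no replicate block) and NRARP (0.0742 with no replicate block). In the feedback list the rises numbered 1 to 2 without 1 pool of 3 h and 4 without 24 h pool 3.

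Receptor genes moved in both directions, with 3 of 40 higher (7.5%, against 1.12% of all genes), 2 lower (5.0%, against 0.342%) and a median of 0.04. EPHA2, an ephrin receptor, was at 196, 192 and 145 CPM in static and 302, 281 and 309.5 CPM in sheared libraries (0.75 ± 0.12, adjusted p = 0.00172, edgeR), and TGFBR1, the type I receptor for TGF-beta, rose by 0.55 ± 0.12 (adjusted p = 0.0183). EPHB3, another ephrin receptor, went the opposite way, from 120.2, 122 and 161 CPM to 84.1, 72.3 and 116 CPM (-0.58 ± 0.11, adjusted p = 0.00882). The groups of EPHB3 did not overlap, and pool 3 was highest in both. ROR1, a receptor for WNT5A that is not in the receptor list, fell as well (-0.79 ± 0.15, adjusted p = 0.00951). EPHB3 stayed lower at 12 h (-0.51) and 24 h (-0.45), and EPHA2 was at -0.09 at 24 h, -0.85 from its 3 h effect (adjusted p = 0.00480). Under other settings the adjusted p missed 0.05 for EPHA2 (0.0947 without pool 3 and 0.0561 with no replicate block), TGFBR1 (0.133 to 0.369 without any 1 pool and 0.208 with no replicate block) and EPHB3 (0.0766 to 0.268 without any 1 pool and 0.424 with no replicate block). Likewise the call was lost for ROR1 (0.168 without pool 1 and 0.271 without pool 3). Receptor genes that rose numbered 0 to 1 without 1 pool of 3 h and 6 without 24 h pool 3, and none fell without 1 pool of 3 h.

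In the list of small GTPases and their regulators 4 of 31 rose (12.9%, against 1.12% of all genes) and 1 fell (3.23%, against 0.342%), with a median of 0.10. RASD1, a small GTPase that dampens G protein signalling to adenylyl cyclase, had 12.0, 8.97 and 10.3 CPM in static and 57.4, 61.9 and 47.2 CPM in sheared libraries (2.41 ± 0.18, adjusted p = 9.53e-07, edgeR). RRAD, a GTPase that restrains voltage-gated calcium channels, was at 1.35, 0.983 and 0.727 CPM in static libraries and at 10.6, 8.43 and 5.23 CPM in sheared ones (2.97 ± 0.28, adjusted p = 8.09e-06). Its relative GEM rose by 1.74 ± 0.20 (adjusted p = 8.36e-05). In all 3 the sheared values lay above the static ones with wide gaps. The list member that fell was ARHGAP24, a GTPase-activating protein for Rac, at 19.5, 21.4 and 23.9 CPM in static and 10.0, 9.91 and 12.6 CPM in sheared libraries (-0.99 ± 0.15, adjusted p = 0.00133). VAV3, a guanine nucleotide exchange factor, fell too (-0.97 ± 0.19, adjusted p = 0.0109). Both were also lower at 12 h (-0.74 and -0.97) and 24 h (-0.49 and -1.03). The rises of RASD1, RRAD and GEM had fallen to 0.42, 0.16 and 0.22 by 12 h, and each differed from its 3 h effect (adjusted p = 7.58e-04, 0.00642 and 0.0129). The adjusted p was above 0.05 for VAV3 (0.238 without pool 1, 0.170 without pool 2 and 0.0652 with no replicate block).

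Feedback regulators of MAP kinase signalling rose in 5 of 27 cases (18.5%, against 1.12% of all genes), and none fell (median 0.29). DUSP4, a phosphatase that removes phosphate from ERK, was at 208, 218 and 271 CPM in static and 379.5, 359.8 and 411 CPM in sheared libraries (0.73 ± 0.14, adjusted p = 0.00654, edgeR). SPRY1, which inhibits receptor tyrosine kinase signalling, was at 23.1, 22.3 and 29.1 CPM in static and 36.9, 31.9 and 51.6 CPM in sheared libraries (0.68 ± 0.12, adjusted p = 0.00516). In either gene static and sheared values lay apart. PHLDA1 rose by 0.66 ± 0.10 (adjusted p = 0.00138). SPRY1 was then lower in sheared cells, at -0.47 at 12 h (adjusted p = 0.0195) and -0.66 at 24 h (adjusted p = 0.00130). In other fits a call was lost for DUSP4 (0.0508 to 0.160 without any 1 pool and 0.146 with no replicate block), SPRY1 (0.101 without pool 1, 0.141 without pool 3 and 0.292 with no replicate block) and PHLDA1 (0.0572 without pool 1). Feedback genes that rose numbered 0 to 2 without 1 pool of 3 h and 7 without 24 h pool 3.

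Genes that respond to cAMP through the transcription factor CREB were the list with the largest share of rises. This ranking is among lists written with earlier results of these data known. Of 27 tested 12 rose (44.4%, against 1.12% of all genes) and none fell, with a median of 0.78. These rises numbered 8 to 9 without 1 pool of 3 h and 15 without 24 h pool 3. Most also belong to other lists. NR4A3, NR4A2, SIK1 and FOSB are immediate early genes and RASD1, RRAD and GEM are small GTPases. AREG is also in the list of growth factor ligands, and PER1 and PER2 are in that of clock genes. CREB binds the cAMP response element (CRE), searched as TGACGTCA, which reads the same on both strands. In the window from 250 bases before to 50 bases after the start of transcription, 10 of the 132 promoters available for genes that rose held it (7.58%), against 3.06% for tested genes that were not called and 1.98% of all 27305 promoters. It was also in 2 of 46 promoters of genes that fell (4.35%), both among the 21 of genes lower at 3 h and higher at 24 h (9.52%). Of the 10 carriers that rose 1, AREG, was among the 12 cAMP genes that rose, 9 of which had a promoter in the table. The half-site TGACG, searched on both strands, was in 44.7% of the 132 promoters. It was in 33.1% of those of genes not called and 25.0% of all promoters. Among the 9 cAMP genes, NR4A3, RASD1, PER2, AREG, SIK1, SIK2 and FOSB held the half-site, and PDE4B and PER1 did not. The CRE was not the only motif with a larger share in genes that rose. The AP-1 site, searched as TGANTCA, was in 16 of the 132 promoters (12.1%), against 4.74% for genes not called. For the TATA box, searched as TATAAA, the shares were 16.7% and 6.11%. No test was made of these shares. The 250 bases before the start are shown for 3 CRE carriers with different roles, the ligand AREG, the receptor EPHA2 and CHMP1B. CHMP1B is a subunit of the ESCRT-III complex that cuts membranes. Capitals mark the CRE (RefSeq, GRCh38.p14).
AREG: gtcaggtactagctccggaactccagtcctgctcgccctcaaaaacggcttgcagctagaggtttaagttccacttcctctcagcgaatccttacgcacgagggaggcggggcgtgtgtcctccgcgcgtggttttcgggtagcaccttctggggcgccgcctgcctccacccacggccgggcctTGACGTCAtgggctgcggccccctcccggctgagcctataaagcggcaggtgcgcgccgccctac
EPHA2: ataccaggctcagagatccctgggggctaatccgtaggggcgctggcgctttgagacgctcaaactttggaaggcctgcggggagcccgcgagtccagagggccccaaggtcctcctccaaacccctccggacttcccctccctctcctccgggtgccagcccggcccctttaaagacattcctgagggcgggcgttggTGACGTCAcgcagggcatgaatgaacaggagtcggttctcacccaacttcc
CHMP1B: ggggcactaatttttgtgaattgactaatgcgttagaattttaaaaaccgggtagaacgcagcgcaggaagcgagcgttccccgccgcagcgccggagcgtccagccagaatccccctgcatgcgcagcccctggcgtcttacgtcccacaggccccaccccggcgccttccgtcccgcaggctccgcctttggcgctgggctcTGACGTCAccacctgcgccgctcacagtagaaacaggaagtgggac
These are chr4:74444886-74445135 (plus strand), chr1:16156070-16156319 (minus strand), chr18:11851163-11851412 (plus strand). The CRE begins 65, 51 and 46 bases before the start in AREG, EPHA2 and CHMP1B. The match describes the sequence only.

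Transcription regulators outside the immediate early list rose as well. Of 61 inducible ones 7 rose (11.5%, against 1.12% of all genes) and 1 fell (1.64%, against 0.342%), with a median of 0.25. The rises numbered 5 without 1 pool of 3 h and 13 without 24 h pool 3. ETS2, a target of MAP kinases, was at 117, 113 and 89.4 CPM in static and 341, 392 and 302 CPM in sheared libraries (1.70 ± 0.16, adjusted p = 1.17e-05, edgeR). NFATC2, which calcineurin sends to the nucleus when calcium rises, was at 33.8, 33.0 and 34.5 CPM in static and 106, 115 and 78.1 CPM in sheared libraries (1.54 ± 0.15, adjusted p = 8.09e-06). Sheared libraries were above static ones in each pool, least so in pool 3 for NFATC2. The zinc finger gene ZNF331 rose by 1.33 ± 0.15 (adjusted p = 4.98e-05) and ARNT2, a partner of bHLH-PAS factors, by 1.69 ± 0.26 (adjusted p = 0.00109). ETS2, NFATC2 and ZNF331 were at 0.09, -0.04 and 0.17 at 12 h, each different from 3 h (adjusted p = 0.00168, 7.58e-04 and 0.00789), whereas ARNT2 was still higher (1.26, adjusted p = 0.00217).

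Of 20 circadian clock genes 2 rose (10.0%, against 1.12% of all genes) and none fell (median 0.20). Those that rose are both Period genes, repressors of CLOCK and BMAL1. PER2 was at 14.5, 13.3 and 13.2 CPM in static and 36.3, 39.7 and 30.7 CPM in sheared libraries (1.37 ± 0.17, adjusted p = 1.20e-04, edgeR), and PER1 rose by 0.86 ± 0.14 (adjusted p = 0.00204). The PER2 groups were well apart in every pool. At 12 h PER2 had reversed to -1.29 (adjusted p = 7.89e-04), a difference of -2.66 from 3 h (adjusted p = 1.48e-04). PER1 was at -0.45 at 12 h (adjusted p = 0.0552), -1.31 from 3 h (adjusted p = 0.00209). Judged by the adjusted p, calls were lost for PER1 (0.0533 without pool 1 and 0.0683 without pool 3).

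Lists for the cell surface and the matrix had medians below 0 and 1 or 2 calls each, all rises. CD55, which protects cells from complement, was at 130.4, 103 and 130.0 CPM in static and 396, 414 and 436 CPM in sheared libraries (1.78 ± 0.16, adjusted p = 6.83e-06, edgeR). It was the only one of 9 complement regulators tested to rise (11.1%, against 1.12% of all genes, median -0.03). PMP22, a tetraspan membrane protein, was at 98.2, 94.6 and 94.1 CPM in static and 299, 331 and 216 CPM in sheared libraries (1.54 ± 0.15, adjusted p = 1.14e-05), with the smallest rise in pool 3. ADAMTS1, a secreted metalloprotease that cuts proteoglycans, rose by 2.12 ± 0.19 (adjusted p = 6.83e-06, edgeR). It was the sole call among 26 metalloproteases and plasminogen genes (3.85%, against 1.12% of all genes, median -0.08). These 3 were at 0.31, 0.16 and 0.28 at 12 h, none past the threshold.

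AQP3, a channel for water and glycerol, had 16.9, 17.6 and 13.1 CPM in static and 43.6, 48.4 and 47.7 CPM in sheared libraries (1.56 ± 0.18, adjusted p = 7.93e-05, edgeR), with the groups well apart. It was at 1.99 at 12 h and 1.28 at 24 h. TRPV3, a calcium-permeable cation channel known for sensing warmth, rose from a low level, 1.98, 2.78 and 3.04 CPM in static against 7.43, 10.1 and 6.81 CPM in sheared libraries (1.64 ± 0.24, adjusted p = 8.00e-04). AVPI1, a gene known as induced by vasopressin, rose by 1.37 ± 0.16 (adjusted p = 8.17e-05) and was higher at 12 h (1.02) and 24 h (0.98) too. Of 33 matrix and integrin genes 2 rose (6.06%, against 1.12% of all genes) and none fell (median -0.09). The fit of 3 h alone called 4 higher and 5 lower (5.37% and 4.28% of all genes in that fit). The 2 that rose were CCN3, a secreted matricellular protein (1.12 ± 0.15, adjusted p = 2.82e-04), and COL1A1, a chain of type I collagen. COL1A1 was at 12.1, 12.5 and 15.5 CPM in static and 29.9, 32.5 and 28.6 CPM in sheared libraries (1.19 ± 0.16, adjusted p = 2.98e-04). COL1A1 was lower in sheared cells at 24 h (-0.48, adjusted p = 0.0471). Of the fibroblast markers, THY1 was at 0 in all 6 libraries, while LUM (1.31 to 3.85 CPM), PDGFRA (0.962 to 2.82 CPM) and COL3A1 (0.654 to 1.85 CPM) were detected. As given above, the summed fibroblast and endothelial markers without COL1A1 were 19.5 to 23.5 CPM (static) and 16.4 to 20 CPM (sheared). The source of the COL1A1 transcript was not tested. Under other settings the adjusted p missed 0.05 for TRPV3 (0.0516 with no replicate block) and CCN3 (0.330 with no replicate block).

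**Figure D2:**
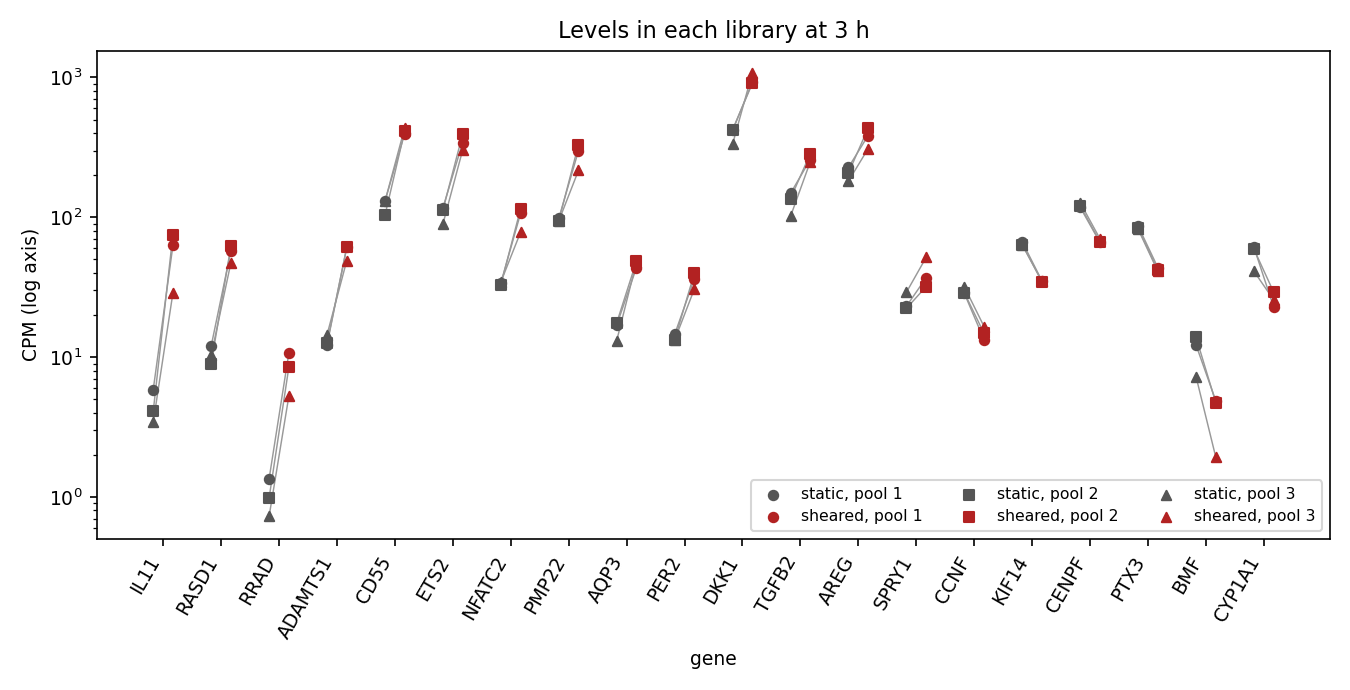
CPM on a log axis for 20 genes outside the immediate early list, with static libraries in grey and sheared libraries in red; the symbol gives the pool and a line joins the libraries of 1 pool. In every gene shown the 3 lines run the same way, upward in the first 14 genes and downward in the last 6.

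Of 23 YAP/TAZ target genes 3 rose (13%, against 1.12% of all genes) and none fell (median 0.15), TGFB2 and a pair that restrain the pathway itself; without pool 3 of 3 h 1 rose. LATS2, a kinase that inhibits YAP, was at 19.0, 16.9 and 19.0 CPM in static and 36.7, 40.0 and 64.1 CPM in sheared libraries (1.31 ± 0.22, adjusted p = 0.00442, edgeR). AMOTL2, which holds YAP at cell junctions, was at 11.3, 11.8 and 8.46 CPM in static and 20.6, 19.0 and 30.8 CPM in sheared libraries (1.13 ± 0.21, adjusted p = 0.00805). Both rose most in pool 3. None of 30 SRF targets and actin cytoskeleton genes passed (median 0.09). Of 23 mechanosensitive and volume-regulated channels 1 rose (KCNK1, 4.35%, against 1.12% of all genes). So did 1 of 34 membrane repair and ESCRT genes (2.94%). That one was CHMP1B, at 62.2, 64.9 and 71.8 CPM in static and 101, 101 and 104 CPM in sheared libraries (0.62 ± 0.12, adjusted p = 0.00741), with no overlap. The adjusted p was above 0.05 for LATS2 (0.0703 without pool 3), AMOTL2 (0.185 without pool 3) and CHMP1B (0.0661 to 0.160 without any 1 pool).

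Regulators of survival and of the cycle changed on both sides. MCL1, a short-lived inhibitor of apoptosis that is also in the immediate early list, was at 158, 156 and 153 CPM in static and 270.0, 296 and 297 CPM in sheared libraries (0.89 ± 0.18, adjusted p = 0.0177, edgeR). BMF, a BH3-only protein that promotes apoptosis and is known for cell death after loss of attachment, was at 12.2, 13.8 and 7.22 CPM in static and 4.87, 4.73 and 1.92 CPM in sheared libraries (-1.57 ± 0.24, adjusted p = 0.00109). Static and sheared values lay apart in both genes, and these were the only calls among 21 genes of the BCL2 family. The shares were 4.76% higher and 4.76% lower, against 1.12% and 0.342% of all genes. BMF was at -0.09 at 12 h and lower again at 24 h (-0.98, adjusted p = 0.0133). Of the inhibitors of cyclin-dependent kinases, CDKN1A rose by 0.68 ± 0.13 (adjusted p = 0.00937) and CDKN2B fell by 0.72 on the log2 scale (adjusted p = 0.00125). CDKN2B stayed lower at 12 h (-0.92) and 24 h (-0.84), while CDKN1A was lower at 24 h (-0.51, adjusted p = 0.0154). ODC1, which makes polyamines and is a MYC target, was at 856, 830.5 and 897 CPM in static and 1526, 1455 and 1354 CPM in sheared libraries (0.75 ± 0.14, adjusted p = 0.00914). It was the 1 call among 36 genes of ribosome biogenesis and MYC targets (2.78%, against 1.12% of all genes, median 0.10). In other fits a call was lost for MCL1 (0.121 to 0.176 without any 1 pool and 0.213 with no replicate block), BMF (0.0813 with no replicate block) and CDKN1A (0.0708 to 0.176 without any 1 pool and 0.563 with no replicate block). Likewise the call was lost for CDKN2B (0.0662 without pool 2 and 0.0893 with no replicate block) and ODC1 (0.0605 to 0.176 without any 1 pool and 0.0813 with no replicate block).

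In the NF-kB list 1 of 28 rose (3.57%, against 1.12% of all genes), IL6, and 2 fell (7.14%, against 0.342%), with a median of 0.07. In that list 1 fell without 1 pool of 3 h, and 3 rose and 4 fell without 24 h pool 3. PTX3, a secreted pattern recognition protein, was at 86.5, 83.8 and 82.1 CPM in static and 43.7, 41.8 and 41.1 CPM in sheared libraries (-1.0 ± 0.13, adjusted p = 2.02e-04, edgeR), and ICAM1, an adhesion receptor for leukocytes, at 77.2, 78.1 and 98.2 CPM and 37.5, 36.0 and 43.8 CPM (-1.11 ± 0.23, adjusted p = 0.0418). In both genes all sheared libraries were below all static ones. The co-chaperone BAG3 was the 1 call among 27 heat shock and chaperone genes (3.7%, against 0.342% of all genes lower). It fell by -0.72 ± 0.11 (adjusted p = 0.00144, edgeR), and it stayed lower at 12 h (-1.08) and 24 h (-0.68). CYP1A1, a target of the aryl hydrocarbon receptor, was at 60.8, 58.9 and 41.0 CPM in static and 22.7, 29.1 and 25.6 CPM in sheared libraries (-1.04 ± 0.17, adjusted p = 0.00169), and was higher at 24 h (0.80, adjusted p = 0.0236). In the p53 list 3 of 25 rose (12.0%, against 1.12% of all genes) and 1 fell (4%, against 0.342%), with a median of 0.03. Without 1 pool of 3 h, 1 rose and none fell. No gene passed among 22 of the unfolded protein response, 29 ATF4 targets, 25 NRF2 targets or 12 of the prostaglandin pathway. Judged by the adjusted p, calls were lost for ICAM1 (0.241 to 0.261 without any 1 pool and 0.330 with no replicate block), BAG3 (0.0695 without pool 2 and 0.0638 with no replicate block) and CYP1A1 (0.109 without pool 1 and 0.0725 with no replicate block). ICAM1 also lost its call without 12 h pool 1 or 2 or 24 h pool 1, at an adjusted p of 0.0562, 0.0556 and 0.0750.

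None passed at 3 h among 28 genes of glycolysis and the pentose phosphate pathway (median 0.07) or 35 of the TCA cycle (0.05). The same held for 48 of the respiratory chain (0.10) and 39 of sterol and fatty acid synthesis (-0.02). Of the last list, 22 were lower at 12 h, against 4.55% of all genes. All 53 cytosolic ribosomal protein genes were above 0 at 3 h, with a median of 0.13 and none past the threshold. At 12 h 52 of them were higher, against 6.29% of all genes. Of 35 interferon-stimulated genes 1 rose (ISG20) at 3 h (2.86%, against 1.12% of all genes), and none without 1 pool of 3 h. At 12 h 22 of them were lower, against 4.55% of all genes. The 3 h libraries carry another batch date than the later ones, so time and batch cannot be told apart here. The fit of 3 h alone called 14 ribosomal protein genes higher, and 2 and 7 interferon-stimulated genes higher and lower. That fit called 5.37% of all genes higher and 4.28% lower.

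**Figure D3:**
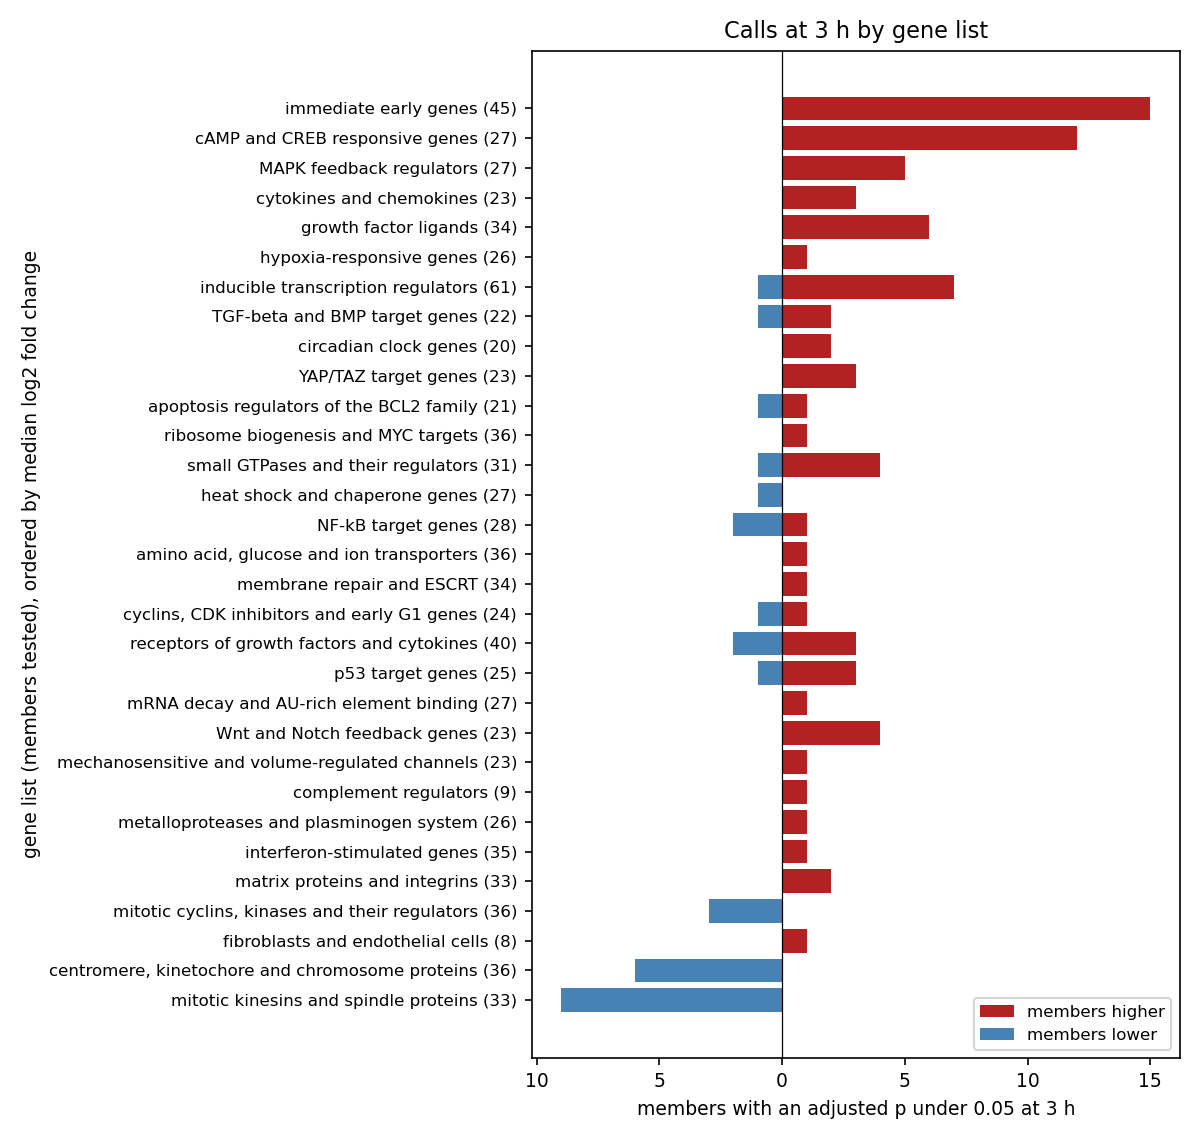
Number of members that rose (red, to the right) and fell (blue, to the left) at 3 h in each gene list with at least 1 call; the number tested is in brackets and lists are ordered by their median log2 fold change. The immediate early list (15 of 45) and the cAMP list (12 of 27) had the most rises, and the mitotic lists at the bottom had falls alone. Background shares are 1.12% higher and 0.342% lower.

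Most of the genes lower in sheared cells that belong to a list act in mitosis. Of 33 mitotic kinesins and spindle proteins 9 fell (27.3%, against 0.342% of all genes), no member was above 0, and the median was -0.39. Of 36 centromere, kinetochore and chromosome proteins 6 fell (16.7%, median -0.26), and of 36 mitotic cyclins, kinases and their regulators 3 fell (8.33%, median -0.24). No member of the 3 lists rose. KIF14, a kinesin of cytokinesis, was at 66.6, 63.7 and 63.5 CPM in static and 35.0, 34.7 and 34.8 CPM in sheared libraries (-0.89 ± 0.12, adjusted p = 2.18e-04, edgeR). The centromere protein CENPF was at 118, 121 and 127 CPM and 66.2, 66.9 and 70.2 CPM (-0.85 ± 0.12, adjusted p = 6.77e-04). CCNF, the F-box cyclin of a ubiquitin ligase, was at 28.6, 28.8 and 31.9 CPM and 13.3, 14.8 and 16.6 CPM (-1.0 ± 0.14, adjusted p = 6.98e-04). The 3 pools were nearly alike within each group for KIF14 and CENPF, and static and sheared libraries were far apart. CDCA8 of the chromosomal passenger complex (-0.82 ± 0.13), the proliferation antigen MKI67 (-0.82 ± 0.15), ASPM of the spindle poles (-0.87 ± 0.15), the kinase AURKA (-0.66 ± 0.12), the kinesin KIF20A (-0.75 ± 0.15) and the spindle protein CKAP2L (-0.63 ± 0.12) fell too.

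Genes of DNA replication lay near 0: of 37 G1/S and replication genes none passed at 3 h (median -0.06), and the fit of 3 h alone called none of them. That fit called 24, 18 and 17 genes lower in the kinesin, centromere and cyclin lists, against 4.28% of all genes, with none higher (against 5.37%). Without 1 of the 3 h pools the falls numbered 1 to 2 of the kinesin list, 2 of the centromere list and 1 of the cyclin list; without 24 h pool 3 they numbered 17, 13 and 10. With no replicate block they numbered 0, 0 and 1. The medians kept their sign over the settings tried, at -0.41 to -0.38, -0.30 to -0.26 and -0.25 to -0.21. Under other settings the adjusted p missed 0.05 for KIF14 (0.619 with no replicate block), CENPF (0.203 with no replicate block) and CDCA8 (0.153 with no replicate block). Likewise the call was lost for MKI67 (0.0543 to 0.129 without any 1 pool and 0.285 with no replicate block), ASPM (0.141 without pool 1 and 0.285 with no replicate block) and AURKA (0.0507 to 0.126 without any 1 pool and 0.523 with no replicate block). Likewise the call was lost for KIF20A (0.102 to 0.160 without any 1 pool and 0.708 with no replicate block) and CKAP2L (0.126 to 0.170 without any 1 pool and 0.482 with no replicate block).

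At 24 h the same lists were higher in sheared cells, in 31 of 33, 34 of 36 and 35 of 36 members, with medians of 1.23, 1.12 and 1.20. Of the 52 genes lower at 3 h, 23 were higher at 24 h (44.2%, against 9.13% of all genes). Their median was -0.69 at 3 h, 0.15 at 12 h and 1.11 at 24 h. The signs at 3 h and 24 h follow from how these 23 were chosen. CDCA8 went from -0.82 to 0.40 and 1.63, a difference of 2.45 between 24 h and 3 h (adjusted p = 1.66e-06, edgeR), and KIF14 from -0.89 to 0.11 and 1.28 (2.17, adjusted p = 1.66e-06). The 3 h libraries carry another batch date than the later ones, so time and batch cannot be told apart in these differences.

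**Figure D4:**
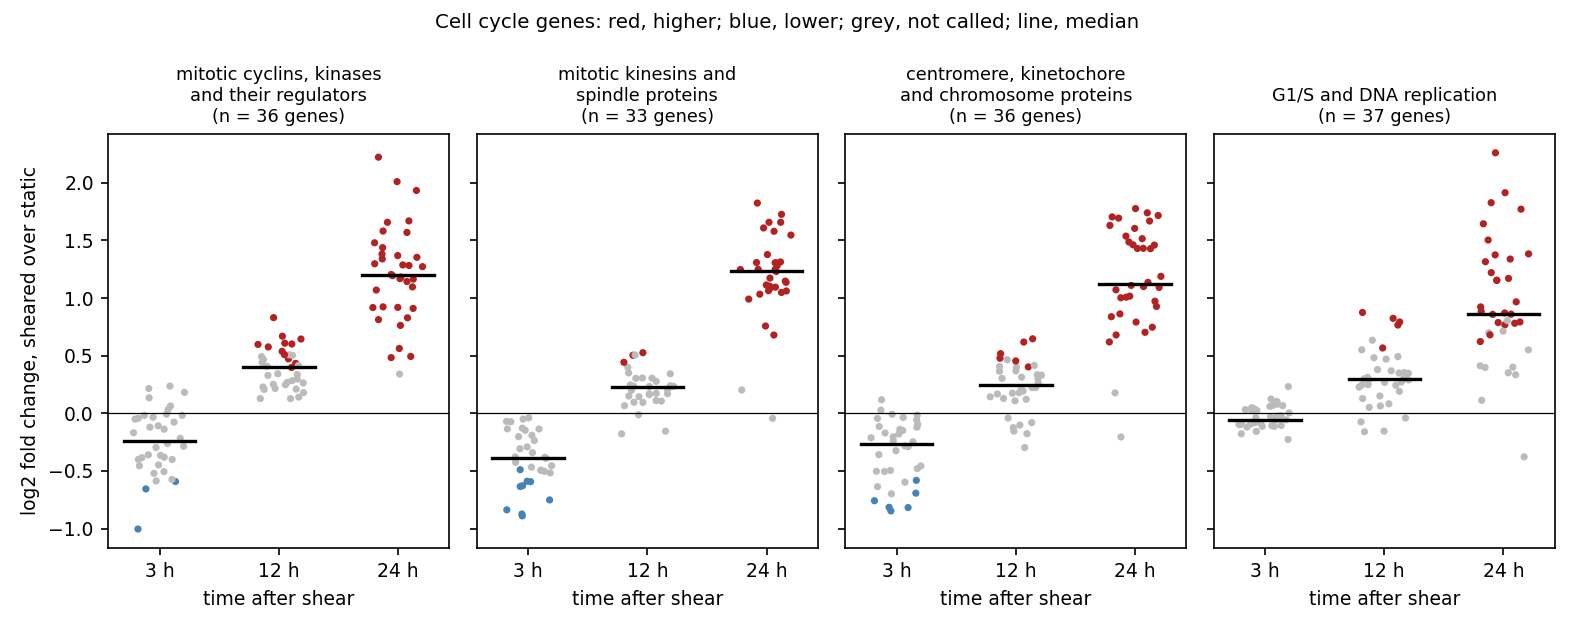
Log2 fold change of sheared over static cells (y axis) at 3 h, 12 h and 24 h for the members of 4 cell cycle lists, 1 point per gene, red where higher, blue where lower and grey where not called; lines are medians. The medians of the 3 mitotic lists lie below 0 at 3 h and above it at 24 h, and that of the G1/S list at -0.06 at 3 h and 0.86 at 24 h.

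Many genes lower at 3 h and higher at 24 h held the same promoter elements. The CHR, searched as TTTGAA on both strands, was in 14 of their 21 promoters available (66.7%), in 8.00% of the 25 promoters of other genes that fell, in 9.56% of tested genes that were not called and in 15.4% of all promoters. The CCAAT box, searched as CCAAT on both strands, was in 76.2%, 52.0%, 36.4% and 35.7% of the same groups. The motifs can overlap, as in CDCA8. Mitotic genes as a class are known to carry both, and no test was made of these shares. The 250 bases before the start are shown for 3 genes that fell, with CHR and CCAAT box in capitals on either strand (RefSeq, GRCh38.p14).
CCNF: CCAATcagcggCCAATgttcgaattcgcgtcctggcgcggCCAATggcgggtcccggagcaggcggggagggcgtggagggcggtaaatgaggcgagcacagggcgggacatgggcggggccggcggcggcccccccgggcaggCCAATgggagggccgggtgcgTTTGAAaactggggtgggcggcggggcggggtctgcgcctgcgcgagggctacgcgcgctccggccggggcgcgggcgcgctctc
CDCA8: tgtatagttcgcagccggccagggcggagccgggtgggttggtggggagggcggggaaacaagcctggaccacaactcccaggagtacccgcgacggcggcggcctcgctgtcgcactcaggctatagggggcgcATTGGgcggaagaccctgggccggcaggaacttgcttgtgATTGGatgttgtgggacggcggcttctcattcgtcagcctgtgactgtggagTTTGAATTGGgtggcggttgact
CKAP2L: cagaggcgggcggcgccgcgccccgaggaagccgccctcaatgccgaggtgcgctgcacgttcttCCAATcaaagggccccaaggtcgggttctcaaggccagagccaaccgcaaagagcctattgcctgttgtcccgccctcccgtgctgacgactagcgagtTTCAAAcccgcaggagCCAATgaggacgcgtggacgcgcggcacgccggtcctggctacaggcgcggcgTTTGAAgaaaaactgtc
These are chr16:2429197-2429446 (plus strand), chr1:37692266-37692515 (plus strand), chr2:112764610-112764859 (minus strand). In CCNF the CHR begins 85 bases before the start and in CDCA8 23 bases before it, and CKAP2L has a CHR on each strand. Genes lower at 3 h had more exons, with a median of 12.5 against 8 for tested genes and 6 for genes that rose.

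Most genes that rose at 3 h were not called higher later. Of the 170 genes 46 were also higher at 12 h (27.1%, against 6.29% of all genes) and 34 of the 170 at 24 h (against 9.13% of all genes), with 28 higher at both. A further 14 were lower at 12 h or 24 h, and 104 were called at neither later time. A missing call does not show that the effect had ended, but for 34 of the 104 the effect at both later times differed from that at 3 h. The median of the 170 was 0.88 at 3 h, 0.25 at 12 h and 0.11 at 24 h. These genes were chosen by their rise at 3 h, which by itself favours smaller medians at other times. The batch date of 3 h is another than that of the later times too. Among all genes 214 (1.41%) had a different effect at 12 h than at 3 h and 895 (5.89%) at 24 h. IL11, RASD1, RRAD, ETS2 and CD55 were among the 34 with a different effect at both later times, and AQP3, DKK1, TGFB2, AREG and AVPI1 among the 28 higher at both. Of the 52 falls 16 were also lower at 12 h (30.8%, against 4.55%) and 17 at 24 h (32.7%, against 8.07%), CDKN2B, BAG3 and EPHB3 among them.

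**Figure D5:**
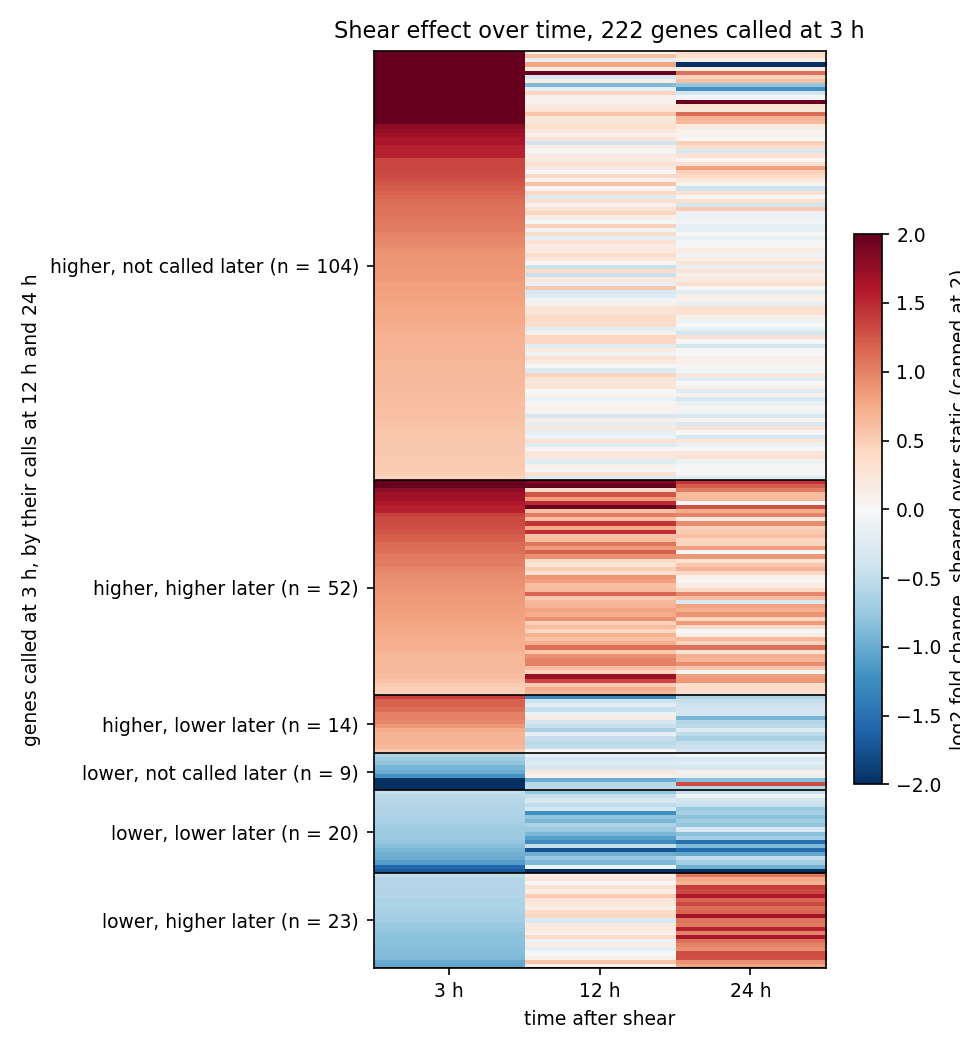
Log2 fold change at 3 h, 12 h and 24 h (columns) for the 222 genes called at 3 h (rows), red for higher and blue for lower in sheared cells, with the color capped at 2; rows are grouped by their calls at the later times. Of the genes higher at 3 h, 104 were not called later, 52 were higher again and 14 were lower, and of those lower at 3 h, 9 were not called later, 20 were lower again and 23 were higher.

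The authors' deposited table of the 3 h comparison called 118 genes higher (0.796% of 14827 with an adjusted p-value) and 23 lower (0.155%). Of the genes called here, 111 of the 170 and 21 of the 52 were called in the authors' deposited table, in the same direction.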

How the data were processed

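Raw read counts per NCBI Gene ID, not normalized, were deposited by the authors for 18 libraries. STAR, GRCh38.p13 and DESeq2 are named in the submitters' processing notes. Versions, the read counter and whether counting used strand were not given in the sources used here, so overlapping or near-identical genes may share reads. The authors' deposited 3 h table holds log2 fold changes and adjusted p-values per gene. The 12 h and 24 h tables of the authors were not used here.

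The members and gene lists were chosen with earlier results of these data known. Symbols came from RefSeq (GRCh38.p14) for 27745 of 28395 Gene IDs. Samples were grouped by treatment and time in the labels. Genes passed filterByExpr (minimum count 10, minimum total 15), leaving 15189. The test was edgeR 4.0.16 (R 4.3.3, TMM, robust legacy quasi-likelihood) on all 18 libraries, with 9 pools as blocks, a shear effect per time, 6 residual degrees of freedom and Benjamini-Hochberg adjustment at 0.05; differences between times were contrasts of this fit. Log2 CPM used a prior count of 2. DESeq2 1.42.0 and the other settings given at the end were alternatives. The fits were tested on simulated data.

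The series' design text states that sheared and static libraries of 1 replicate number came from 1 pool. Correlations of their deviations from the group mean were 0.0881, 0.165 and 0.299 at 3 h, and -0.242 to 0.130 for other pairs. Replicates differed by more than counting noise (chi-square per degree of freedom 4.33 to 21.7). An exact permutation of 3 against 3 cannot go below p = 0.1, so none was made.

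Named genes outside the immediate early list were the 20 largest rises and 20 largest falls with an adjusted p under 0.05, a symbol, 1 direction in the 3 pairs and mean log2 CPM of 1 or more. To these come up to 4 members of each list by p, the 6 smallest p of each difference between times, and a few markers; those most telling for a group were used. KCNK1, ISG20, HBEGF and the leading immediate early genes are named with few or no values.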

Additional observations from a re-analysis of the deposited data

Results flagged for a closer look

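The shear effect of some genes named above differed between 3 h and a later time by a contrast of the same edgeR fit at an adjusted p under 0.05; the value in brackets is the later effect minus that at 3 h, on the log2 scale, at the time with the smaller p. Among genes that rose at 3 h, the effect was smaller at 12 h for RRAD (-2.81), ETS2 (-1.61), PMP22 (-1.38), PER2 (-2.66), PER1 (-1.31), PHLDA1 (-0.93) and TGFBR1 (-0.73). At 24 h it was smaller for RASD1 (-2.79), GEM (-1.68), NFATC2 (-1.88), ZNF331 (-1.30), CD55 (-1.59), ADAMTS1 (-1.88), IL11 (-3.22), IL6 (-1.04), CLCF1 (-0.78), IL6R (-1.16), COL1A1 (-1.66), TRPV3 (-1.62), SPRY1 (-1.34), CDKN1A (-1.19), DUSP4 (-0.74), EPHA2 (-0.85) and CHMP1B (-0.95). FST is the exception, with a larger rise at 12 h (0.76). Among genes that fell at 3 h, the effect was higher at 12 h for PTX3 (1.23) and BMF (1.48), and at 24 h for CCNF (1.91), KIF14 (2.17), CENPF (1.77), CDCA8 (2.45), MKI67 (1.92), ASPM (2.18), AURKA (1.82), KIF20A (1.79), CKAP2L (1.94) and CYP1A1 (1.84). Pools of different times are independent, and the batch date of 3 h is another than that of 12 h and 24 h, so time and batch cannot be told apart here.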

How the results depend on the processing

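Depth, at 21030976 to 25862360 counts, limits genes of low abundance. Named genes kept their direction in every setting tried; of the 57 tested in this way, 19 were called in every setting, 29 without any 1 pair of 3 h, and 57 in the fit of 3 h alone. The paired design was the main one: with no replicate block 31 of the named genes lost their call, and the counts were 58 higher, 6 lower, 47 and 3 by at least 2-fold, and 29 and 258 with an effect at 12 h and 24 h that differed from 3 h. The fit of the 6 libraries of 3 h alone with the replicate block gave 816, 650 and, for falls of at least 2-fold, 24. No filter on low counts gave 331 higher, 119 lower, 20 lower by at least 2-fold, and 588 and 1513 differences from 3 h. DESeq2 gave 79 lower and 391 differences at 12 h. With 1 pool left out, of any time, the counts ran from 70 to 304 higher, 9 to 142 lower, 51 to 85 and 3 to 13 by at least 2-fold, and 59 to 635 and 431 to 1209 for differences at 12 h and 24 h. DESeq2 size factors in edgeR kept 165 of the 170 and 51 of the 52 genes. The cause of these shifts was not tested.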
